A study of Mus musculus with 30 samples.

Results

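Tsc22d3 and 8 other genes of the glucocorticoid response were followed in the inguinal mammary glands of mice that carried the Her2/Neu oncogene, lacked the type I interferon receptor chain IFNAR1, or both. The 9 genes were Tsc22d3, Fkbp5, Per1, Zbtb16, Sgk1, Klf9, Dusp1, Cebpd and Nr3c1, taken by name from the annotation of the array platform, and all 9 were measured, by 10 probes, among 11463 genes tested. They were picked after Tsc22d3 had been seen to stand low in Her2/Neu+ glands, so the level of Tsc22d3 in Her2/Neu+ against WT glands is given here as a description with no test.

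The 30 glands came from 4 groups on a 129sv background, all 19 weeks old: 9 Her2/Neu+/IFNAR1-/-, with the oncogene and without the receptor chain, 6 Her2/Neu+, with the oncogene and an intact receptor, 8 IFNAR1-/-, without the receptor chain and without the oncogene, and 7 WT with neither change. The series is about the part of the body's own type I interferon in tumour formation driven by Her2/Neu. The labels give neither the promoter of the oncogene nor whether a gland held a tumour. Each array compared the RNA of 1 gland, labelled with Cy5, with Stratagene universal mouse reference RNA, labelled with Cy3. A value is the log2 ratio of gland over reference, so 0 means the level of the reference RNA, 1 a level 2-fold above it, and no value can be set against that of another gene.

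Glucocorticoids are adrenal steroid hormones that bind a receptor in the cytoplasm, encoded by Nr3c1. The bound receptor leaves its chaperones, enters the nucleus and binds DNA at glucocorticoid response elements, which consist of a pair of facing hexamers. In the mammary gland glucocorticoids act with prolactin and insulin in lactation, and in fat tissue and immune cells they change lipid turnover and curb inflammation. Tsc22d3, also called GILZ, encodes a leucine zipper protein through which part of the anti-inflammatory action of these hormones runs.

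The tissue was checked against its markers first. Adipocyte markers averaged log2 ratios of 5.23 in Her2/Neu+/IFNAR1-/-, 5.01 in Her2/Neu+, 5.22 in IFNAR1-/- and 5.17 in WT glands over 8 measured genes, and luminal epithelial markers averaged 2.27, 2.07, 2.14 and 1.76 over 7 in the same order, so both fat and epithelium were present in all groups. Single glands varied widely in the luminal mean, from -0.50 to 3.91, -0.10 to 3.13, 0.41 to 3.13 and 1.02 to 2.43 in that order. Arrays held between 17485 and 20801 values, with medians between -0.12 and -0.00. Between 2639 and 10385 values per array occurred digit for digit more than once on that array; they are called repeated values here, and how they were made is not stated. Their median number was 8026 in Her2/Neu+/IFNAR1-/-, 8122 in Her2/Neu+, 5099 in IFNAR1-/- and 6398 in WT glands. Values stop at a size of 6, which bounds a level without measuring it. No inferred slide held both groups of any pair compared here, so group and slide cannot be told apart. In whole glands fewer cells of a type and less RNA per cell cannot be told apart either.

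Tsc22d3 lies on chromosome X at 140539528 to 140600522 in GRCm38.p6 and was read by probe 38365. The RefSeq promoter windows, from 250 bases before a gene start to 50 after it, are shown for 3 members, because they span the range of what was found: a pair of facing hexamers, a single hexamer and none. The receptor hexamer AGAACA was searched on both strands, where the other strand reads TGTTCT, together with the E-box CACGTG, the element through which clock proteins drive genes such as Per1. Matches are in capitals, and positions count from the gene start.
Sgk1, chr10:21993640-21993939, plus strand: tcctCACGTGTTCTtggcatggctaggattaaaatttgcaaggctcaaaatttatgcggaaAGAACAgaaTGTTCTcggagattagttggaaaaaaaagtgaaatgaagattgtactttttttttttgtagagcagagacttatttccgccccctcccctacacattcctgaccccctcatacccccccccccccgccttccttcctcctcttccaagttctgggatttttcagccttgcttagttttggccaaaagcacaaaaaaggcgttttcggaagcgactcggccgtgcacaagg
Tsc22d3, chrX:140600473-140600772, minus strand: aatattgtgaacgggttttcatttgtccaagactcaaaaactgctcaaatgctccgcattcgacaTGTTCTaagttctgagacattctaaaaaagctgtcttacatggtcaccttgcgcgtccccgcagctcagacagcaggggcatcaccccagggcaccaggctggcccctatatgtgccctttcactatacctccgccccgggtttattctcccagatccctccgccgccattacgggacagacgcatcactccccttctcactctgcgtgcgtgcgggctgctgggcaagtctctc
Klf9, chr19:23140976-23141275, plus strand: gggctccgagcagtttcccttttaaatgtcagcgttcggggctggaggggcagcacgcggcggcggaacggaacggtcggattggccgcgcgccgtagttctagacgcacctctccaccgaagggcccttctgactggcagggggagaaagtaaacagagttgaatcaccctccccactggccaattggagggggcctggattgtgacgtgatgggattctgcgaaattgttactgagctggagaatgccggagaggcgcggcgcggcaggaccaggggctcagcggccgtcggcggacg

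The Sgk1 window shown, 1 of 6 of that gene, held 2 facing hexamers with 3 bases between them, starting at -189, and a further hexamer at -242 that overlaps an E-box starting at -246. Such a pair was found in 3 of 32851 windows of all genes (0.00913%). The Tsc22d3 window of its most upstream start held 1 hexamer, at -185, and its other 2 windows held none. At least 1 hexamer was present in 4 of 14 windows of the 6 members with a window, against 19.0% of all windows; 3 of these 4 belong to Sgk1 and 1 to Tsc22d3, so 2 of 6 members held one. An E-box was found in 4 of 14, against 7.15%. The E-boxes lay in windows of Sgk1, Per1 (-166), Dusp1 (-126) and Fkbp5 (-169). The Klf9 window held neither. These are letters in short windows, and they say nothing about binding or about elements farther away.

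Tsc22d3 is described first, being the gene whose low level in Her2/Neu+ glands led to the choice of the members. In Her2/Neu+/IFNAR1-/- glands its log2 ratio lay between 1.52 and 2.50, with a median of 1.91 and a mean of 1.99 ± 0.30 (SD, n = 9). Her2/Neu+ glands had 1.67, 1.47, 0.77, 0.16, -0.05 and -0.24, a mean of 0.63 ± 0.81 (n = 6). In IFNAR1-/- glands it lay between 0.57 and 2.30, with a median of 1.44 and a mean of 1.45 ± 0.56 (n = 8). WT glands had between 1.87 and 3.39, with a median of 2.40 and a mean of 2.50 ± 0.50 (n = 7). By mean level the order was WT, Her2/Neu+/IFNAR1-/-, IFNAR1-/- and Her2/Neu+, and each group overlapped its neighbour in that order. All 6 Her2/Neu+ arrays lay below all 7 WT arrays, a difference of -1.87 ± 0.31 (SE), or 3.65-fold lower. Among all genes 0.192% had every Her2/Neu+ array below every WT array, and since Tsc22d3 was chosen on these groups nothing is read from that. The 9 Her2/Neu+/IFNAR1-/- arrays were higher than the Her2/Neu+ arrays by 1.36 ± 0.29, and 8 of them lay above every Her2/Neu+ array. IFNAR1-/- minus WT was -1.05 ± 0.29, with 6 of 8 IFNAR1-/- arrays below every WT array. Receptor loss thus had differences of opposite sign with and without the oncogene, and these stood 2.41 ± 0.41 apart (the interaction). These 4 values share the Her2/Neu+ or WT arrays on which the gene was chosen and carry no p. Such a choice by itself pushes the differences of receptor loss apart, so nothing is read from their signs.

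**Figure D1:**
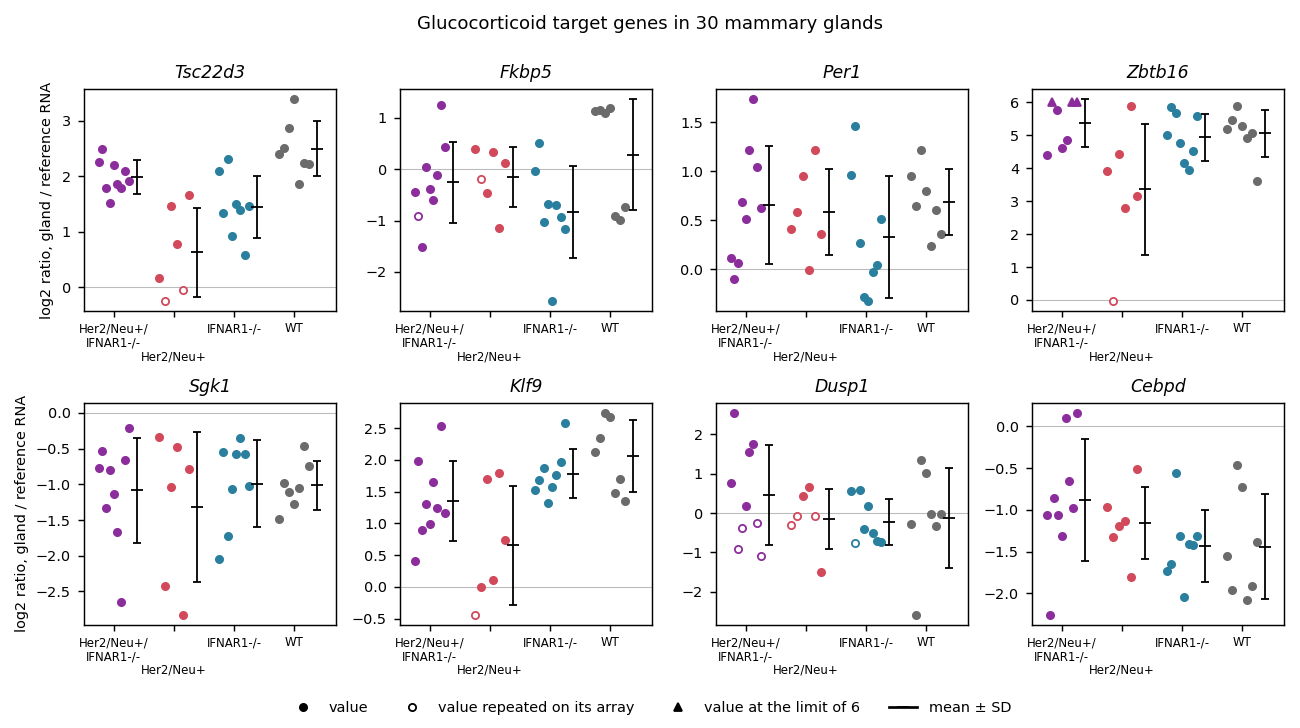
Log2 ratio of gland over reference RNA (vertical axis) for 8 genes on each array, by group. Open circles are repeated values, triangles are values at the limit of 6, and bars are the mean ± SD. In the Tsc22d3 panel the 6 Her2/Neu+ arrays, between -0.24 and 1.67, all lie below the 7 WT arrays, between 1.87 and 3.39.

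The comparison that uses neither of those groups asks what the oncogene does where the receptor is missing. Tsc22d3 was 0.54 ± 0.27 (SE) higher in Her2/Neu+/IFNAR1-/- than in IFNAR1-/- glands, or 1.45-fold, and all 9 Her2/Neu+/IFNAR1-/- arrays lay above the IFNAR1-/- mean. It did not pass the limma test over all genes (adjusted p = 0.279), in which 1.31% of genes passed, although the exact permutation test of these 17 arrays alone, two-sided and 1 of 9 such tests on the members, gave p = 0.0250. After quantile normalization the difference was 0.35 and the exact permutation p was 0.201. Array sets, 2 runs of 15 arrays inferred from sample order, gave 0.31 ± 0.41 (set 1) and 0.66 ± 0.28 (set 2) for this difference. The value of -1.87 for Her2/Neu+ minus WT has the opposite sign, but it is the value on which the gene was chosen. The difference of 0.54 did not pass the limma test, and its exact permutation p depended on the normalization. A change of sign with the receptor is therefore not shown.

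Low values of Tsc22d3 in Her2/Neu+ glands came with many repeated values. The 3 lowest, on arrays 113, 119 and 114, stood on arrays with 10044, 9983 and 9542 repeated values, and those of 119 and 114 are themselves repeated values. Her2/Neu+ arrays 120, 115 and 118, with 2712, 6702 and 3753, had 1.67, 1.47 and 0.77. Among Her2/Neu+/IFNAR1-/- arrays the 3 with over 9000 repeated values, 108, 105 and 109, had 1.78, 1.52, the lowest value of that group, and 2.10. With repeated values set to missing, Her2/Neu+ minus WT was -1.48 ± 0.31, and without the 6 arrays of over 9000 repeated values it was -1.19 ± 0.34. Array set 1 alone gave -1.66 ± 0.38 and set 2 alone -2.40 ± 0.41. The only Her2/Neu+ arrays of set 2 are 114 and 119. These also resembled their own group least of all arrays, with a median r with its arrays of 0.41 and 0.53. That of array 113 was 0.60. The group medians of this r were 0.60 in Her2/Neu+ and 0.78 in WT glands. Its part in the low values of Tsc22d3 was not tested.

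**Figure D2:**
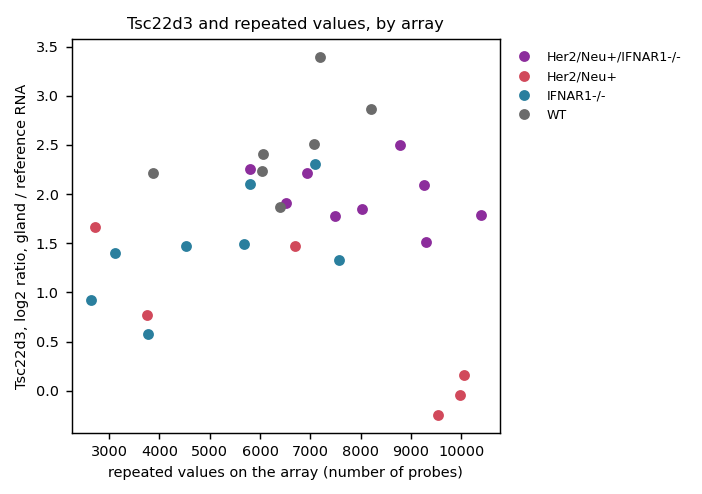
Log2 ratio of Tsc22d3 (vertical axis) against the number of repeated values on the same array (horizontal axis), 1 point per array, coloured by group. The 3 Her2/Neu+ arrays with 9542 to 10044 repeated values hold the 3 lowest values of all 30 arrays, and 3 Her2/Neu+/IFNAR1-/- arrays with 9262 to 10385 stand between 1.52 and 2.10.

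Of the markers of other cells, the means of fibroblast, endothelial, basal and T and NK cell markers were lowest in Her2/Neu+ glands. Those of macrophage, muscle and B cell markers were not. In Her2/Neu+/IFNAR1-/- minus IFNAR1-/-, all 7 fibroblast markers (median -0.67) and all 3 endothelial markers (median -0.37) were lower too. The mean of 7 fibroblast and matrix markers had log2 ratios between 0.43 and 1.62 in Her2/Neu+/IFNAR1-/-, -0.81 and 1.04 in Her2/Neu+, 1.15 and 2.06 in IFNAR1-/-, and 0.85 and 1.91 in WT glands. For 3 endothelial markers the ranges were 3.82 to 5.71, 3.68 to 5.03, 4.82 to 5.87 and 4.71 to 5.88 in that order. For 6 macrophage markers they were 0.27 to 3.14, 0.91 to 2.13, 1.02 to 2.24 and 0.19 to 1.68, and for 4 skeletal muscle markers -0.13 to 4.17, -1.45 to 0.90, -1.20 to 5.48 and -1.04 to -0.00. Basal (6 genes), T and NK cell (5) and B cell markers (3) had means of 1.19, 1.75 and 0.58 in Her2/Neu+ glands, against 1.69, 2.37 and 1.51 in WT glands, with SDs between 0.64 and 2.69. Their part in the level of Tsc22d3 was not tested. With the mean of the adipocyte markers as a covariate, Tsc22d3 in Her2/Neu+ minus WT was -1.74 ± 0.32, and with that of the luminal markers -1.81 ± 0.31. The adipocyte means per array lay between 4.70 and 5.57, near the limit of 6, which may narrow this covariate. No part of fat content is therefore read from that fit.

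Of the other 8 members, 0 passed the limma test in Her2/Neu+/IFNAR1-/- minus IFNAR1-/- and 0 in Her2/Neu+/IFNAR1-/- minus Her2/Neu+ or IFNAR1-/- minus WT, where 0.0785% and 0.0262% of all genes passed. At an unadjusted p under 0.05 the counts were 0, 2 and 1 of 8, against 18.5%, 11.2% and 6.87% of all genes. In Her2/Neu+ minus WT, 7 of the 8 had a negative difference, with a median of -0.37 against -0.02 over all genes. The sign held in every alternative fit that kept the gene for Fkbp5, Zbtb16 and Klf9, but it turned for Sgk1 (0.24 in array set 1 and 0.25 without the arrays of over 9000 repeated values), Per1 (0.29 in set 2), Dusp1 (0.88 in set 2) and Nr3c1 (0.063 by probe 2725). A positive one was found for 6 of 8 in Her2/Neu+/IFNAR1-/- minus IFNAR1-/-, with a median of 0.38 against 0.15.

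**Figure D3:**
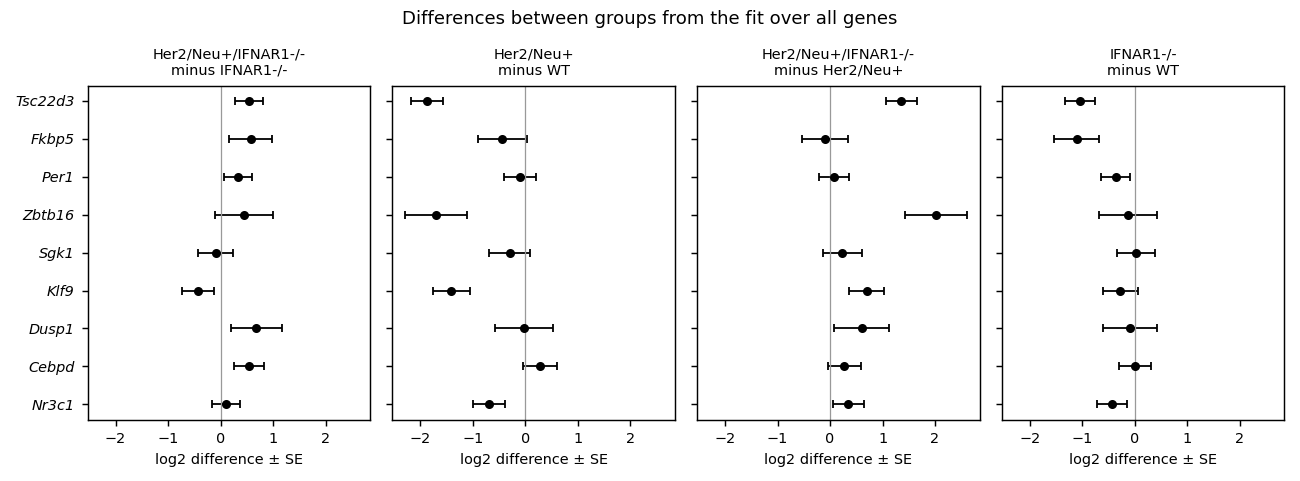
Log2 differences ± SE (horizontal axis) of the 9 genes from the fit over all genes, 1 panel per pair of groups. Tsc22d3, Zbtb16 and Klf9 lie farthest below 0 in Her2/Neu+ minus WT, at -1.87, -1.70 and -1.41, and farthest above 0 in Her2/Neu+/IFNAR1-/- minus Her2/Neu+, at 1.36, 2.01 and 0.70.

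Klf9 and Zbtb16 encode zinc finger transcription factors that glucocorticoids induce in many tissues; Klf9 also acts in fat cell formation and Zbtb16, also called PLZF, in lymphocyte development. Klf9 had log2 ratios between 0.41 and 2.54 in Her2/Neu+/IFNAR1-/- (median 1.25), -0.44 and 1.80 in Her2/Neu+ (median 0.42), 1.32 and 2.59 in IFNAR1-/- (median 1.73) and 1.35 and 2.74 in WT glands (median 2.13). Her2/Neu+ glands were the lowest group by median and the most spread, with 3 arrays between -0.44 and 0.10 and 2 at 1.70 and 1.80. Her2/Neu+ minus WT was -1.41 ± 0.35, with 4 of 6 Her2/Neu+ arrays below every WT array. Against Her2/Neu+, the Her2/Neu+/IFNAR1-/- glands were 0.70 ± 0.33 higher (adjusted p = 0.434). The lowest Her2/Neu+ value, -0.44 on array 113, is a repeated value. With repeated values set to missing, these 2 differences became -1.19 ± 0.35 and 0.48 ± 0.33. Without the arrays of over 9000 repeated values they were -1.21 ± 0.37 and 0.33 ± 0.38. The second was 1.12 ± 0.51 in array set 1 and 0.22 ± 0.45 in set 2. Against IFNAR1-/- glands the difference was -0.43 ± 0.31 (adjusted p = 0.467; exact permutation p = 0.116). The sign for Klf9 was negative in both oncogene contrasts; the difference between the contrasts was 0.98 ± 0.47 for Klf9.

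Zbtb16 stood far above the reference RNA in nearly every gland. A value was given on 7 of 9 Her2/Neu+/IFNAR1-/- arrays, between 4.40 and the limit of 6, and 3 of them were at the limit, so their size was not measured. Her2/Neu+ arrays ran from -0.02, a repeated value on array 114, to 5.89, with a median of 3.54. IFNAR1-/- arrays had between 3.94 and 5.86 (median 4.90) and WT arrays between 3.60 and 5.90 (median 5.20). The difference Her2/Neu+/IFNAR1-/- minus Her2/Neu+ was 2.01 ± 0.59 (adjusted p = 0.209), and Her2/Neu+ minus WT -1.70 ± 0.59. With repeated values set to missing, which removed array 114 for this gene, these became 1.34 ± 0.46 and -1.02 ± 0.46. Against IFNAR1-/- glands the Her2/Neu+/IFNAR1-/- glands had 0.44 ± 0.55 (adjusted p = 0.714), and IFNAR1-/- minus WT -0.12 ± 0.55 (adjusted p = 0.984).

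Fkbp5, a co-chaperone of the receptor that dampens its activity and is among its most sensitive targets, did not follow the same order. Its log2 ratios lay between -1.52 and 1.25 in Her2/Neu+/IFNAR1-/- (median -0.37), -1.15 and 0.40 in Her2/Neu+ (median -0.03), -2.56 and 0.51 in IFNAR1-/- (median -0.82) and -0.98 and 1.20 in WT glands (median 1.10). The WT arrays fell into 2 clumps: 56, 54, 53 and 55 between 1.10 and 1.20, and 60, 57 and 59 between -0.98 and -0.73. IFNAR1-/- minus WT was -1.11 ± 0.43 (adjusted p = 0.684), the 1 of 8 members with an unadjusted p under 0.05 in that comparison. Her2/Neu+/IFNAR1-/- minus Her2/Neu+ was -0.10 ± 0.44 (adjusted p = 0.948), and Her2/Neu+/IFNAR1-/- minus IFNAR1-/- 0.57 ± 0.41 (adjusted p = 0.467; exact permutation p = 0.187). For the last value, array set 1 alone gave 1.39 ± 0.70 and set 2 alone 0.07 ± 0.41.

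Per1, a repressor in the circadian clock that glucocorticoids also induce, ranged between -0.10 and 1.73 in Her2/Neu+/IFNAR1-/-, -0.01 and 1.21 in Her2/Neu+, -0.32 and 1.46 in IFNAR1-/-, and 0.24 and 1.21 in WT glands. The 4 groups overlapped throughout. Its largest difference in a tested contrast, IFNAR1-/- minus WT, was -0.36 ± 0.28 (adjusted p = 0.829). Sgk1, a kinase that regulates sodium channels and cell survival, stood below the reference RNA on all 30 arrays, with medians of -0.79 in Her2/Neu+/IFNAR1-/-, -0.91 in Her2/Neu+, -0.80 in IFNAR1-/- and -1.05 in WT glands. The lowest values were those of Her2/Neu+ arrays 119, at -2.82, and 114, at -2.43, and of 1 Her2/Neu+/IFNAR1-/- array, 108, at -2.66. Differences of Sgk1 in the tested contrasts lay between -0.10 and 0.23 with SEs of 0.34 to 0.37.

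Dusp1, a phosphatase that switches off MAP kinases, had a repeated value on 8 of 30 arrays, 4 of them Her2/Neu+/IFNAR1-/- and 3 Her2/Neu+. Its mean was 0.46 ± 1.27 (SD, n = 9) in Her2/Neu+/IFNAR1-/- and -0.22 ± 0.58 (n = 8) in IFNAR1-/- glands, a difference of 0.68 ± 0.48 (SE; adjusted p = 0.466). Leaving out its repeated values gave 1.50 ± 0.54, over 1.5 times the difference with them. Cebpd, a transcription factor of early fat cell formation and the acute phase response, lay between -2.25 and 0.16 in Her2/Neu+/IFNAR1-/-, -1.81 and -0.51 in Her2/Neu+, -2.05 and -0.56 in IFNAR1-/-, and -2.08 and -0.46 in WT glands. Her2/Neu+/IFNAR1-/- minus IFNAR1-/- was 0.55 ± 0.29 (adjusted p = 0.301; exact permutation p = 0.0838), with 8 of 9 Her2/Neu+/IFNAR1-/- arrays above the IFNAR1-/- mean. Her2/Neu+ minus WT was 0.28 ± 0.33, the only positive difference among the 9 genes in that comparison.

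Nr3c1, the receptor gene, lies on chromosome 18 at 39410545 to 39519421 in GRCm38.p6, and its 2 probes disagreed. Probe 2725 averaged -0.13 ± 0.53 (SD, n = 9) in Her2/Neu+/IFNAR1-/- glands, 0.31 ± 0.48 (n = 6) in Her2/Neu+ glands, -0.11 ± 0.49 (n = 8) in IFNAR1-/- glands and 0.25 ± 0.49 (n = 7) in WT glands. Probe 18551 averaged 1.48 ± 1.20, 0.34 ± 0.63, 1.27 ± 0.80 and 1.77 ± 0.82 in that order. Her2/Neu+ minus WT was 0.06 ± 0.29 (SE) by probe 2725 and -1.43 ± 0.50 by probe 18551, where 3 of 6 Her2/Neu+ values were repeated values. Her2/Neu+/IFNAR1-/- minus Her2/Neu+ was -0.44 ± 0.27 by the first probe and 1.14 ± 0.47 by the second. No direction can therefore be given for the receptor gene in Her2/Neu+ glands. The mean of both probes passed in no tested contrast, and Her2/Neu+/IFNAR1-/- minus IFNAR1-/- was 0.10 ± 0.27 (adjusted p = 0.880).

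**Figure D4:**
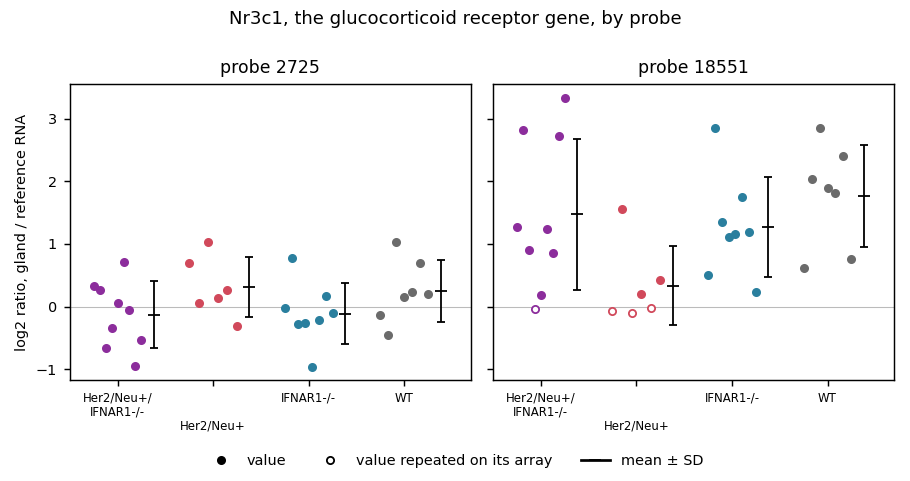
Log2 ratio of gland over reference RNA (vertical axis) by group for each of the 2 probes of Nr3c1, with the mean ± SD. Her2/Neu+ arrays have a mean of 0.31 by probe 2725, the highest of the groups, and 0.34 by probe 18551, the lowest of the groups.

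Other targets of the receptor were read from a list of 30 genes, of which 23 were tested. Of these, 1 rose in Her2/Neu+/IFNAR1-/- against IFNAR1-/- glands, where 0.942% of all genes rose, and 0 fell, with a median difference of 0.01 against 0.15 over all genes. The gene was Lcn2, which encodes the iron-siderophore binding protein lipocalin 2 and which inflammation and oncogenic signalling also induce: 3.10 ± 0.78 (SD, n = 9) in Her2/Neu+/IFNAR1-/- and 1.73 ± 0.72 (n = 8) in IFNAR1-/- glands, a rise of 1.37 ± 0.31 (SE; limma adjusted p = 0.0303). The rise of Lcn2 stood close to the threshold: it did not pass in 12 of 48 other fits, where it was between 0.96 and 1.41, among them those without any 1 of Her2/Neu+/IFNAR1-/- arrays 105, 108, 109 and 110 or IFNAR1-/- array 47 (adjusted p between 0.0506 and 0.0634). Lcn2 also stood higher with the oncogene where the receptor was intact, at 2.93 ± 0.42 (SD, n = 6) in Her2/Neu+ and 1.43 ± 0.52 (n = 7) in WT glands. The median was 0.34, against 0.11 over all genes, in Her2/Neu+/IFNAR1-/- minus Her2/Neu+, 16 of 23 were higher and 0 passed, with 3 higher and 1 lower at an unadjusted p under 0.05, where 11.2% of all genes were in either direction. There Nfkbia, which encodes an inhibitor of NF-kappaB, had a mean of 0.25 ± 0.35 (SD, n = 9) in Her2/Neu+/IFNAR1-/- and -0.73 ± 0.47 (n = 6) in Her2/Neu+ glands, a difference of 0.98 ± 0.21 (SE; adjusted p = 0.0759). It passed without Her2/Neu+ array 120 (1.12, adjusted p = 0.0124) and without Her2/Neu+/IFNAR1-/- array 105 (1.03, adjusted p = 0.0489). Angptl4, an inhibitor of lipoprotein lipase, had 1.03 ± 0.43 (adjusted p = 0.368). In IFNAR1-/- minus WT the median was -0.20 against -0.08 and 0 passed, 3 being lower at an unadjusted p under 0.05, against 6.87% of all genes in either direction; Ddit4, an inhibitor of mTOR signalling, had -0.81 ± 0.32 and Mt2, a metallothionein, -1.01 ± 0.41 (adjusted p = 0.684 each). In Her2/Neu+ minus WT 18 of 23 were lower, with a median of -0.73 against -0.02 over all genes. There 0 were past the threshold (0.131% of all genes were). At an unadjusted p under 0.05, 8 were lower and 1 higher, where 6.69% and 5.37% of all genes were. Per array the list mean overlapped, at 0.32 to 1.47 in Her2/Neu+ and 1.11 to 1.82 in WT glands. Its 3 lowest Her2/Neu+ values, 0.32, 0.77 and 0.79, stood on arrays 114, 113 and 119, each with over 9000 repeated values. Array 118, with 3753, had 0.84.

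**Figure D5:**
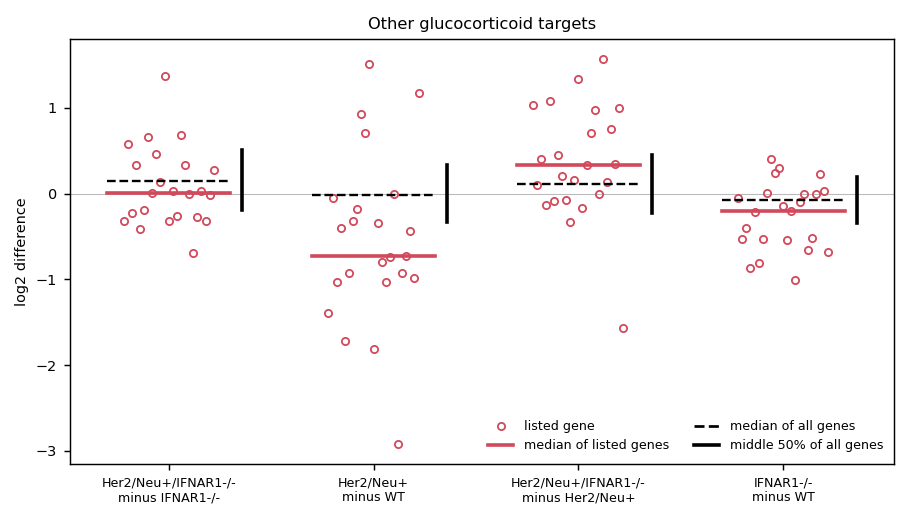
Log2 differences (vertical axis) of 23 other glucocorticoid targets, 1 circle per gene, in 4 comparisons. Solid lines are the medians of the list, 0.01, -0.73, 0.34 and -0.20 from left to right, dashed lines the medians of all genes, 0.15, -0.02, 0.11 and -0.08, and upright bars the middle 50% of all genes.

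Genes that act on the hormone or the receptor were measured by 9 of 14 listed, and 0 passed in the 3 tested contrasts. At an unadjusted p under 0.05, 2 were lower in Her2/Neu+/IFNAR1-/- than in IFNAR1-/- glands, 2 higher and 2 lower than in Her2/Neu+ glands, and 2 higher in IFNAR1-/- than in WT glands, where 18.5%, 11.2% and 6.87% of all genes were past that p. Ncoa1, a coactivator of steroid receptors, had the smallest p in Her2/Neu+/IFNAR1-/- minus IFNAR1-/-, at -0.47 ± 0.19 (adjusted p = 0.183), and in Her2/Neu+/IFNAR1-/- minus Her2/Neu+, at -0.59 ± 0.21 (adjusted p = 0.303). In array set 2 alone the second of these was -1.13 (adjusted p = 0.0486), and 11 of the 27 Ncoa1 probe values in Her2/Neu+/IFNAR1-/- glands were repeated or at the limit. H6pd, which supplies NADPH to the enzyme that regenerates active hormone, was 0.78 ± 0.29 in Her2/Neu+/IFNAR1-/- minus Her2/Neu+ (adjusted p = 0.321). In IFNAR1-/- minus WT the chaperone genes Fkbp4 and Stip1 had 1.06 ± 0.31 (adjusted p = 0.534) and 1.14 ± 0.43 (adjusted p = 0.684), although 5 of the 15 Fkbp4 values were repeated values. With array weights Fkbp4 passed, at 1.03 (adjusted p = 0.0302). Among 2 measured relatives of Tsc22d3, Tsc22d1 and Tsc22d4, 0 passed. Tsc22d4 had 0.76 ± 0.31 in Her2/Neu+/IFNAR1-/- minus Her2/Neu+ (adjusted p = 0.364), with 10 of its 17 and 8 of its 12 probe values repeated or at the limit in those groups.

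The clock list, with Per1 left out, had 0 of 9 measured genes past the threshold in each tested contrast, and at an unadjusted p under 0.05 had 1 higher and 1 lower in Her2/Neu+/IFNAR1-/- than in IFNAR1-/- glands and 1 lower in IFNAR1-/- than in WT glands, against 18.5% and 6.87% of all genes. Bhlhe40, a repressor of clock genes, had 1.00 ± 0.42 (adjusted p = 0.199) and Nr1d1, the repressor REV-ERB alpha, -1.48 ± 0.71 (adjusted p = 0.261) in Her2/Neu+/IFNAR1-/- minus IFNAR1-/-. Without Her2/Neu+ array 114, which enters this contrast only through the shared variance, Nr1d1 passed at -1.48 (adjusted p = 0.0263), but all 7 of its Her2/Neu+/IFNAR1-/- values were repeated values or at the limit. Of 13 immediate-early genes, which respond within minutes to growth signals as Dusp1 does, 0 passed; in that contrast their median was 0.44 against 0.15, with 2 of 13 higher at an unadjusted p under 0.05, a share below the 18.5% of all genes in either direction, and Atf3, a stress-induced transcription factor, had 0.98 ± 0.35 (adjusted p = 0.132), with all 9 of its Her2/Neu+/IFNAR1-/- values repeated or at the limit. Of 3 other C/EBP genes 0 passed, and 1 was past an unadjusted p of 0.05 in Her2/Neu+/IFNAR1-/- minus Her2/Neu+, where 11.2% of all genes were. That gene, Cebpa, the late fat cell factor, had 0.92 ± 0.41 in Her2/Neu+/IFNAR1-/- minus Her2/Neu+ (adjusted p = 0.407). Of its 9 Her2/Neu+/IFNAR1-/- values 7 were repeated or at the limit, and their median was the limit of 6, so the size of that difference was not measured. Of 4 measured milk protein and lactogenic genes, 1, Lalba, the gene of the whey protein alpha-lactalbumin, rose in Her2/Neu+/IFNAR1-/- against IFNAR1-/- glands (limma adjusted p = 0.000197), where 0.942% of all genes rose. All 7 of its Her2/Neu+/IFNAR1-/- values were at the limit of 6, against 4 IFNAR1-/- values between -0.08 and 4.33, 2 of them repeated, so the size of the rise was not measured. Values at the limit do not vary (SD 0), which lowers the SE behind this p. Lalba passed in all 45 other fits that kept the gene. Its mean was 5.93 in Her2/Neu+ glands (5 of 6 values repeated or at the limit) and 0.07 in WT glands (4 of 4), so it also stood higher with the oncogene where the receptor was intact.

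Across arrays, after group means were removed, Tsc22d3 was only weakly related to the other 8 members. Pearson's r over 28 to 30 arrays lay between 0.05 and 0.32 and no pair passed (adjusted p of 0.397 or more over 8 pairs, permutation within groups). The highest was with Klf9, at r = 0.32 (permutation p = 0.149) and Spearman's rho = 0.35 (permutation p = 0.0911), and r = 0.29 without WT 56 and Her2/Neu+ 120. Within single groups the r with Klf9 was 0.15 in Her2/Neu+/IFNAR1-/-, 0.32 in Her2/Neu+, 0.01 in IFNAR1-/- and 0.87 in WT glands. Among all 36 pairs of members, computed after the first 8 had been seen, Zbtb16 and Klf9 were the closest, at r = 0.60 (permutation p = 0.00487, adjusted p = 0.131) and rho = 0.62 (permutation p = 0.00134, adjusted p = 0.0482) over 28 arrays, and r = 0.54 without Her2/Neu+ 119 and 114. In all, 29 of the 36 values of r were above 0. The share among pairs of other genes was not computed, and pairs that share a gene are not independent. Nothing is therefore read from that count.

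The genes most like Tsc22d3 were sought among 9650 genes with values on at least 27 arrays. With group means removed they were COX2 and Cox6a1 (r = 0.68 each), Edf1 (r = 0.67), and Cox8a, Ctsc and Ppp2r2d (r = 0.66 each). COX2 here is the mitochondrial gene for a subunit of cytochrome c oxidase, of which Cox6a1 and Cox8a encode further subunits, while Edf1 encodes a transcriptional coactivator, Ctsc the protease cathepsin C and Ppp2r2d a subunit of protein phosphatase 2A. With group means kept they were Idh3g (r = 0.75), Cox6c (0.73), COX2 (0.72) and Ppp2r2d, Sdhd and H6pd (0.71 each), where Idh3g and Sdhd encode subunits of enzymes of the citric acid cycle. The closest other member, Klf9, ranked 198 with group means kept and 900 with them removed. These values are descriptions over 28 to 30 arrays of genes picked from the top of a long ranking.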

How the data were processed

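The authors deposited a value table of log2 ratios, gland over reference, with 1 array per gland. Base 2 was taken from the values, none of which exceeds 6 in size, and the direction from the dyes per the labels. Scanner settings, background correction, normalization and the rule for blank values are not given in the sources used here. No intensities are in the table, so signal over background is unknown, and precision rests on how many arrays a group has. Probes were named from the platform annotation: 17376 of 20896 carried 1 symbol and 3520 none. Promoter windows and gene positions are from RefSeq for GRCm38.p6.

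Probes were kept where 50% or more of each group's arrays had a value (16247 named), probes of a gene were averaged, and 1 limma fit (version 3.58.1, R 4.3.3, lmFit and eBayes) was made over 30 arrays with a mean per group. A gene passed at a two-sided Benjamini-Hochberg adjusted p under 0.05 over 11463 genes. Errors of differences are SEs from this fit. Exact permutation tests and correlations (permutation within groups, 100000 resamples) used scipy 1.17.1. The fit was tested on simulated data. The labels number separate samples, and nothing in them says how far the glands were independent, so p-values refer to sample-to-sample spread, which may be technical. Slides (8) and array sets (2 of 15 arrays) were inferred from block numbers and sample order. Alternatives covered normalization, filters, choice of probe, groups fitted, array weights, variance trend, block number, slide, array set, repeated values, arrays with many of them, marker covariates and leaving out each array.

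The members and lists were chosen with earlier results of these data known. Named besides the members are, per list and tested contrast, up to 4 genes past the threshold or, where none passed, up to 2 with the smallest p, and the 6 genes most like Tsc22d3 with group means removed or kept.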

Additional observations from a re-analysis of the deposited data

Results flagged for a closer look

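Single arrays stood apart from their group in 3 of 40 sets of a probe and a group, where chance gives about 1 in 20. Dusp1 was -2.58 on WT array 54, against -0.32 to 1.35 on the other 6 WT arrays. Nr3c1 by probe 18551 was 1.57 on Her2/Neu+ array 114, against -0.10 to 0.43 on the other 5, of which 3 are repeated values. Zbtb16 was 3.60 on WT array 60, against 4.93 to 5.90 on the other 6.

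For Tsc22d3 receptor loss had a difference of 1.36 ± 0.29 in Her2/Neu+ glands and -1.05 ± 0.29 in glands without the oncogene. The interaction was 2.41 ± 0.41 (SE). The gene was chosen on Her2/Neu+ and WT arrays, and such a choice by itself pushes these differences apart. They are a description with no p, and no difference of effect is read from them. Without the 6 arrays of over 9000 repeated values the interaction was 1.83 ± 0.43. The part of the repeated values in it was not tested further.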

How the results depend on the processing

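No paired analysis was possible because the sample numbers in the labels are not shared between groups. In the 3 tested contrasts 0 of the other 8 members passed under each of the 18 alternatives that changed a setting or left out more than 1 array, and with each array left out in turn (30 fits); 0 includes Tsc22d3 in Her2/Neu+/IFNAR1-/- minus IFNAR1-/- and leaves it out elsewhere, where it was not tested. For Tsc22d3 the sign held throughout. Its difference in Her2/Neu+/IFNAR1-/- minus IFNAR1-/- ran from 0.31 to 0.66 over the alternatives and from 0.41 to 0.66 with arrays left out. Quantile normalization gave 0.35, with an exact permutation p of 0.201 in place of 0.0250, and gave Klf9 -0.68, with an exact permutation p of 0.0142 in place of 0.116. Array set 2 alone gave Tsc22d3 2.07 for Her2/Neu+/IFNAR1-/- minus Her2/Neu+ and an interaction of 3.06. Without the 6 arrays of over 9000 repeated values, an alternative chosen after seeing the data, it had 0.78 in that contrast, -1.19 in Her2/Neu+ minus WT and 1.83 in the interaction.

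Single probes of Nr3c1 were likewise tried after seeing the data. Probe 18551, which is also the probe with the larger SD, had -1.43 in Her2/Neu+ minus WT and 1.64 in the interaction, and probe 2725 had 0.063 and -0.075. Probe 2725 also turned the sign in Her2/Neu+/IFNAR1-/- minus IFNAR1-/- (-0.012) and minus Her2/Neu+ (-0.44). The interaction of Nr3c1 was 1.75 in array set 1 and -0.14 in set 2, where Her2/Neu+/IFNAR1-/- minus IFNAR1-/- was -0.36, minus Her2/Neu+ -0.043, and IFNAR1-/- minus WT 0.098. In set 2 Sgk1 had -1.45 in Her2/Neu+ minus WT and 0.96 in the interaction.

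The remaining signs that turned belong to differences near 0. For Her2/Neu+/IFNAR1-/- minus IFNAR1-/-, Sgk1 became 0.43 in set 1 and 0.047 without the arrays of over 9000 repeated values. For Her2/Neu+/IFNAR1-/- minus Her2/Neu+, Fkbp5 became 0.36 in set 2 and Cebpd -0.036 in set 1. There Per1 became -0.0020 with quantile normalization, -0.021 in set 1, -0.043 in set 2, -0.0044 with the adipocyte covariate and -0.031 without the arrays of over 9000 repeated values. Sgk1 became -0.13 with quantile normalization, -0.27 with array weights, -0.023 in set 1, -0.43 without the last inferred slide (also chosen after seeing the data) and -0.18 without the arrays of over 9000. In IFNAR1-/- minus WT, Zbtb16 became 0.17, Sgk1 -0.21 and Cebpd -0.19 in set 1, and Dusp1 0.61 in set 2. Dusp1 became 0.092 with quantile normalization, 0.034 with array weights and 0.027 with the luminal covariate, which gave Sgk1 -0.060 and Cebpd -0.050. Cebpd became -0.017 with block number as a factor, and Sgk1 -0.037 without the last slide.

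With each array left out in turn, signs turned in these ranges. The range in Her2/Neu+/IFNAR1-/- minus IFNAR1-/- was from -0.25 to 0.10 for Sgk1 and from -0.010 to 0.27 for Nr3c1. The range in Her2/Neu+/IFNAR1-/- minus Her2/Neu+ was from -0.29 to 0.062 for Fkbp5, from -0.065 to 0.20 for Per1 and from -0.072 to 0.43 for Sgk1. IFNAR1-/- minus WT ran from -0.37 to 0.019 for Zbtb16, from -0.064 to 0.18 for Sgk1, from -0.50 to 0.15 for Dusp1 and from -0.11 to 0.17 for Cebpd. Her2/Neu+ minus WT ran from -0.43 to 0.25 for Dusp1, from -0.23 to 0.015 for Per1 and from -0.50 to 0.0022 for Sgk1. The interaction of Sgk1 ran from -0.098 to 0.40. Over the other alternatives the interaction ran from -0.40 to 0.96 for Sgk1 and from -0.11 to 0.41 for Cebpd.

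The number of genes past the threshold, against which the members were read, moved far more. It was 150 in Her2/Neu+/IFNAR1-/- minus IFNAR1-/-, and 663 with array weights, 425 with the luminal covariate, 385 without the last slide, 261 with repeated values missing, 50 with block number as a factor, 26 without the arrays of over 9000, 23 with only the groups compared, 13 with slide as a random block, and 0 and 9 in sets 1 and 2. It was 9 in Her2/Neu+/IFNAR1-/- minus Her2/Neu+, with a range of 1 to 908, in IFNAR1-/- minus WT 3, with a range of 0 to 55, and in Her2/Neu+ minus WT 15, with a range of 0 to 750. With single arrays left out the ranges were 35 to 325, 6 to 24, 3 to 5 and 3 to 132 in the same order. Among other targets Lcn2 lost its call in Her2/Neu+/IFNAR1-/- minus IFNAR1-/- with quantile normalization (0.96), only the groups compared (1.37), block number (1.32), slide as a random block (1.41), set 1 (1.40) and set 2 (1.41) alone, and without the arrays of over 9000 (1.05), while Nfkbia passed in Her2/Neu+/IFNAR1-/- minus Her2/Neu+ in set 2 (1.19), with repeated values missing (0.98) and with the adipocyte covariate (1.09). Ncoa1 passed in the same contrast in set 2 (-1.13), Fkbp4 in IFNAR1-/- minus WT with array weights (1.03), and Nr1d1 in Her2/Neu+/IFNAR1-/- minus IFNAR1-/- without the last slide (-1.27). The causes were not tested. Each array set holds 15 arrays, but the counts of 908 and 750, the highest given here, came from set 2 alone.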
